A study of Mus musculus with 2 samples.

Results

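Chil3, Saa3, Plac8, Dmkn, Cd177 and Lyz2 were described as the leading genes of classical monocytes among leukocytes of the pressure-overloaded mouse heart. These 6 of 31192 genes of the transcriptome matrix were named in advance because they had led Ly6c2-high monocytes in earlier results of the same data. Their levels in those monocytes against other leukocytes therefore describe how they were chosen and are given with no test. The cells came from hearts of Cdh5-CreERT2;REFLEX mice, in which tamoxifen-inducible Cre recombinase is driven by the promoter of Cdh5, the gene of the endothelial junction protein VE-cadherin. The mice had received tamoxifen and transverse aortic constriction (TAC), an operation that narrows the aorta and raises the load on the left ventricle. CD45-positive and CD45-negative cells, each sorted into GFP-positive and GFP-negative cells, were pooled into 1 transcriptome library and 1 hashtag library, so that every cell shared the genotype, the tamoxifen and the operation. The number and age of the mice are not given in the sources used here, and there was no replicate library, so that no difference has a replicate check.

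Classical monocytes are blood monocytes that carry much of the surface protein Ly6C, encoded in part by Ly6c2, and the receptor Ccr2, through which they leave the marrow and enter injured tissue, the loaded heart included. In tissue they can become macrophages or dendritic-like cells, and monocytes released under stress can carry genes of neutrophil granules. Patrolling monocytes, the other main type, carry little Ly6C and stay in vessels. Lyz2 encodes lysozyme M, a secreted enzyme that cuts bacterial cell walls and is made by most myeloid cells. Chil3 encodes Ym1, a secreted chitinase-like protein without chitinase activity. Saa3 encodes an acute-phase serum amyloid A protein made outside the liver, and Dmkn encodes dermokine, a secreted protein best known from the epidermis. Cd177 encodes a surface glycoprotein known from neutrophils, and Plac8 encodes a small cysteine-rich protein found inside many leukocytes.

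The 250 bases upstream of the RefSeq start are shown first for Chil3 and Cd177, the pair most closely tied from cell to cell, and for Saa3, the most sparse of the 6 (RefSeq, mouse build GRCm38.p6). The authors named the later build GRCm39 and these positions were not carried over to it. Each is printed in the direction of the gene, and where GENCODE places the gene's start further upstream the window was shortened to end there, which took 24 bases off Saa3. Capitals mark letters of 3 short patterns that were searched on both strands and chosen with these sequences in view, TATAAA, the ETS core GGAAGT (read ACTTCC on the other strand) and the C/EBP pattern TTNNGCAA.
Chil3 (chr3:106167565-106167814, minus strand): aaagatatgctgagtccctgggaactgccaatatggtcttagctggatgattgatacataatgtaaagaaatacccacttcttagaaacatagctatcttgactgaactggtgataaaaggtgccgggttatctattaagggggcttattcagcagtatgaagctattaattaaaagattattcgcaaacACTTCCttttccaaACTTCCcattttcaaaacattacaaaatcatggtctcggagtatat
Cd177 (chr7:24760312-24760561, minus strand): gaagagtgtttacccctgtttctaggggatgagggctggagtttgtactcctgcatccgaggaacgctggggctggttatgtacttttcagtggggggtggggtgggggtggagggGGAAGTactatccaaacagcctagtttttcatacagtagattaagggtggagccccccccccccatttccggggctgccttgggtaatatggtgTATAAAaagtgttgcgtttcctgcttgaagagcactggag
Saa3 (chr7:46715701-46715926, minus strand): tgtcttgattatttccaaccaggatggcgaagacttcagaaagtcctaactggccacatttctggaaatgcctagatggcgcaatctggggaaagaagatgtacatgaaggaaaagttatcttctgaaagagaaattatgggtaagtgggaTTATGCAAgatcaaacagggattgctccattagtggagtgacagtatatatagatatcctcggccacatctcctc
The Chil3 window held ACTTCC at 60 to 55 and again at 46 to 41 bases before the start. The Cd177 window held GGAAGT at 134 to 129 and TATAAA at 40 to 35 bases before the start. The Saa3 window held TTATGCAA at 99 to 92 bases before the RefSeq start, counted with the 24 bases that were taken off its end. Among 32851 RefSeq windows of 250 bases, 19.7% held the ETS letters, 12.4% held TATAAA and 9.56% held the C/EBP pattern on either strand, so that each pattern is found in many windows and a match is no more than a description. In GRCm38 the protein-coding genes Chil3 (chromosome 3), Plac8 (chromosome 5) and Lyz2 (chromosome 10) lay apart, and Saa3, Dmkn and Cd177 lay at separate places on chromosome 7.

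After cells with over 25% mitochondrial counts had been left out, 857 of 878 cells remained, with 28406.6 to 706332 estimated counts each and a median of 77171.3. Ly6c2-high monocytes were the cells with at least 50 CPM (a gene's counts scaled to 1000000 counts of the cell) of Csf1r, the macrophage growth factor receptor, and at least 200 CPM of Ly6c2. There were 86, or 10.0% of the kept cells (exact Clopper-Pearson interval 8.11 to 12.2%). Their median count per cell was 221287, against 72724 over all other kept cells. All 7 markers of classical monocytes, which include both gate genes, reached 50 CPM and 2-fold in the gated cells, and summed to 4624 CPM there against 955 CPM in the others. Of 10 neutrophil markers, 6 reached 50 CPM in the gate and none was 2-fold up (summed 4165 CPM against 24232 CPM). Unsupervised clusters, made without the 6 genes and their paralogs, placed 66 of the 86 cells in the classical monocyte-like cluster, 8 in neutrophil-like clusters, 2 in the macrophage-like cluster, 1 in the dendritic-like cluster and 9 in unnamed clusters. Of those 9, 7 lay in a cluster led by interferon genes. In the following, a type other than the gate means the kept cells of a cluster that did not pass the gate.

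All 6 genes were at least 2-fold higher in the gated cells than in all other kept cells as a whole, the contrast that had chosen them. Of 3004 genes tested there, 6.06% were higher by the same limits (2-fold, an interval that excludes 1, 50 counts and 50 CPM) and 11.9% were lower. The gated cells held 19.9% of all counts, and they held 67.4% of all Chil3 counts, 63.8% of Cd177, 59.5% of Dmkn, 54.9% of Lyz2, 52.5% of Plac8 and 43.0% of Saa3. Set against each of the 10 other types separately, 4 of the 6, Chil3, Plac8, Cd177 and Lyz2, were highest in the gate by summed CPM. Saa3 was highest in macrophage-like cells and Dmkn in the remaining cells of the classical monocyte-like cluster.

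Lyz2 reached 26069 CPM in the gate (exact Poisson interval 25998 to 26140, counting error only), with 0 CPM in the lowest cell, 25932 in the median cell and 53206 in the highest. It was 24090 CPM in the 27 other cells of the classical monocyte-like cluster, 12578 CPM in macrophage-like cells and 8552 CPM in patrolling monocyte-like cells. All 27, 53 and 80 cells of these 3 types held at least 100 CPM. Lyz2 fell away gradually through the myeloid types, to 4876 CPM in the unnamed Plcb1-led cluster, 2177 CPM in the Retnlg-led neutrophil-like cluster, 1279 CPM in dendritic-like cells and 1176 CPM in the Il23a-led neutrophil-like cluster. T cell-like, B cell-like and NK cell-like cells lay at 74.3, 56.5 and 45.4 CPM of Lyz2.

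Chil3 was more unevenly shared. It reached 10863 CPM in the gate (10817.5 to 10908.9), where the median cell held 5666 CPM and the highest 40543 CPM. The other cells of the classical monocyte-like cluster followed at 8650 CPM. Their median cell held 6105 CPM, above that of the gate, so that the gate led by summed CPM and not by the median cell. Next came the Il23a-led neutrophil-like cluster at 2580 CPM, the Plcb1-led cluster at 2215 CPM and macrophage-like cells at 1779 CPM. Patrolling monocyte-like cells had 1007 CPM, but their median cell held only 20.8 CPM, and 25 of 80 cells at 100 CPM or more carried 99.0% of their Chil3. In the Retnlg-led neutrophil-like cluster, at 666 CPM, 40 of 162 cells carried 97.6% of it. B cell-like, T cell-like, NK cell-like and dendritic-like cells lay at 21.04, 16.5, 15.8 and 15.7 CPM of Chil3, and of these only 1 B cell-like and 1 T cell-like cell passed 100 CPM.

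Plac8 was carried by monocytes and, outside the myeloid types, by B cell-like cells. It reached 4215 CPM in the gate (4186.6 to 4243.5; median cell 2687 CPM), 2984 CPM in the other classical monocyte-like cells and 2330 CPM in patrolling monocyte-like cells. B cell-like cells came next at 1508 CPM (1485.22 to 1530.29), with 116 of 161 cells at 100 CPM or more. Dendritic-like cells had 1100 CPM, and macrophage-like cells only 299.9 CPM, 14.1-fold below the gate.

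Cd177 was found in classical monocytes and in some neutrophil-like cells. It reached 160.0 CPM in the gate (154 to 166), where 34 of 86 cells held 100 CPM or more and 31 held none. The other classical monocyte-like cells had 113 CPM, and 10 of these 27 passed 100 CPM. The Retnlg-led neutrophil-like cluster, whose leading genes include Ngp, Camp and Lcn2 of neutrophil granules, had 78.7 CPM, 94.5% of it in 18 of 162 cells. Patrolling monocyte-like cells had 2.62 CPM, with a highest cell of 88.5 CPM, and no Cd177 count was found in 27 NK cell-like cells.

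Saa3 was at most 5.42 CPM in the median cell of any type, and its sums came from a minority of cells. Macrophage-like cells led with 962 CPM, of which 4 of 53 cells carried 99.7%, and the highest of them held 19919 CPM. The gate followed at 693 CPM (682 to 705), with a median cell at 3.54 CPM. Without the highest cell of each type, both stood close together, with a ratio of the gate to macrophage-like cells of 0.987. The other classical monocyte-like cells, outside the gate, came next at 438 CPM, with 8 of 27 cells (29.6%) at 100 CPM or more against 19 of 86 (22.1%) in the gate, and an upper quartile of 212 CPM. In the Il23a-led neutrophil-like cluster, at 341 CPM, 5 of 95 cells carried 98.7% of the Saa3. No patrolling monocyte-like, dendritic-like, B cell-like, T cell-like or NK cell-like cell reached 100 CPM.

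Dmkn was highest in the 27 other classical monocyte-like cells at 359 CPM, where 6 cells carried 99.4% of it and the median cell held none. The gate followed at 211 CPM (205 to 217) with a median cell of 15.1 CPM, and 38 of its 86 cells passed 100 CPM. Without the highest cell of each type, both stood close together, with a ratio of the gate to these cells of 0.989. Dmkn was 36.1 CPM in macrophage-like cells and 16.5 CPM or less in the 8 remaining types, and patrolling monocyte-like cells had 0.910 CPM.

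**Figure D1:**
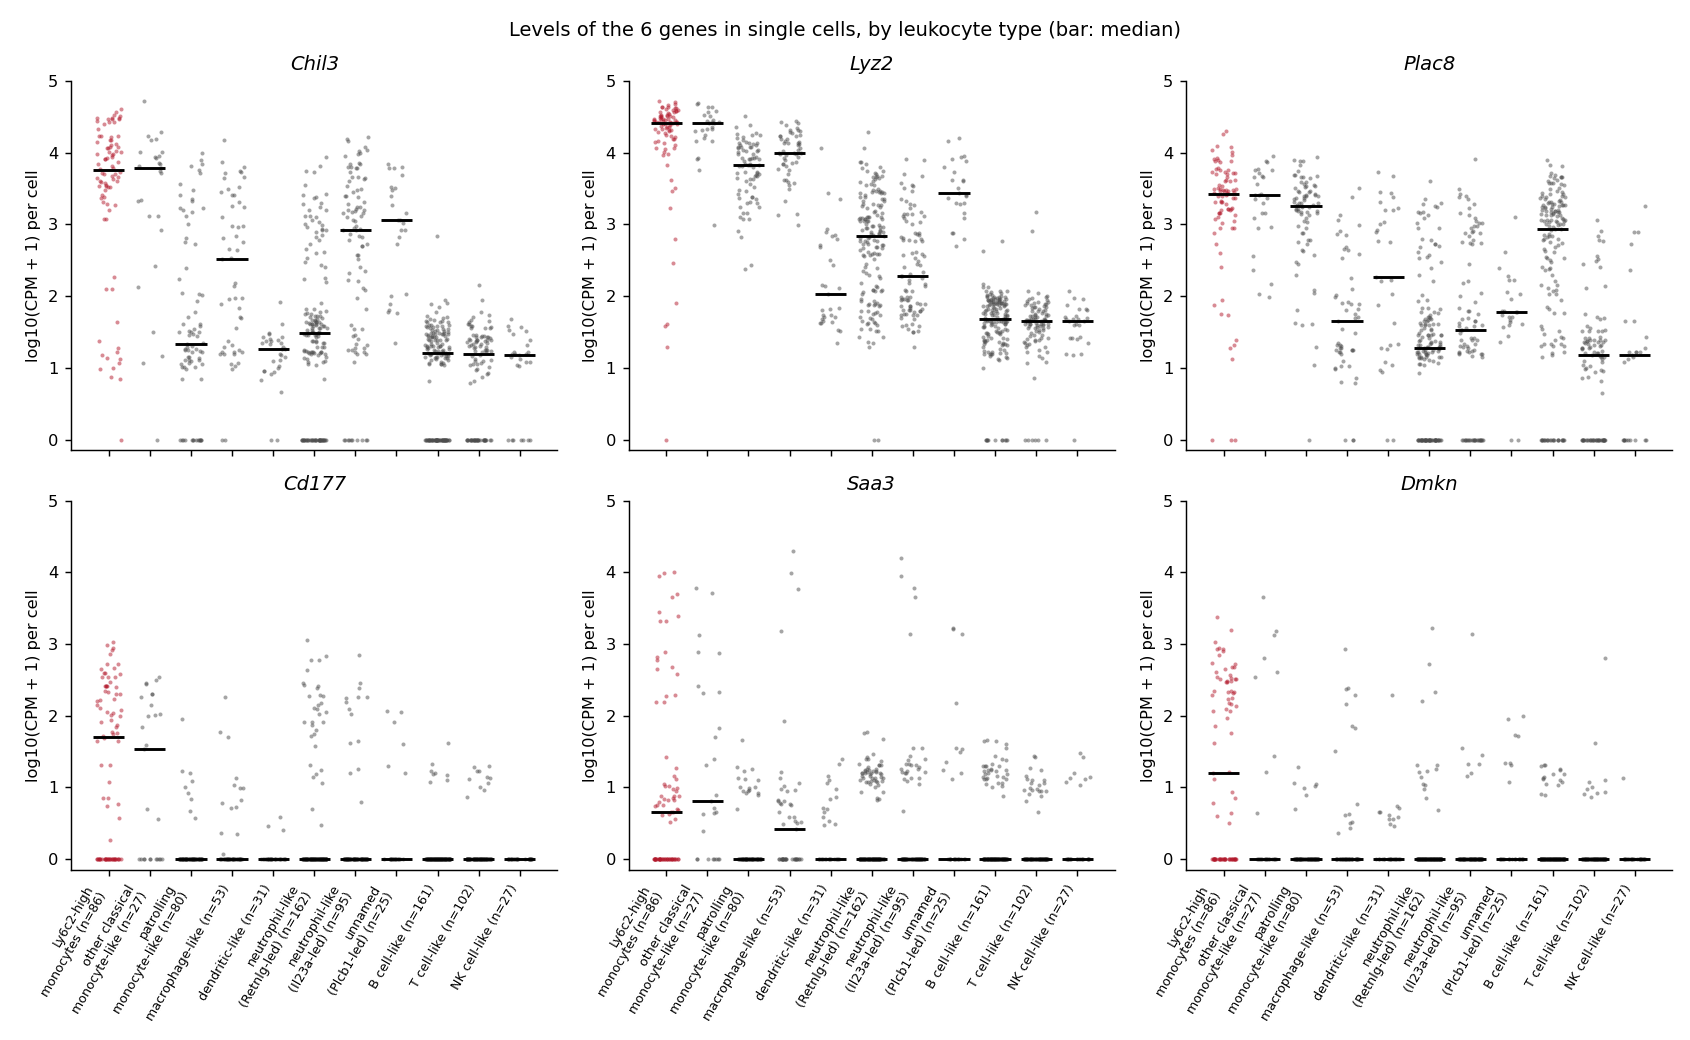
Levels of the 6 genes in single cells (log10 of CPM + 1, vertical axis) by leukocyte type (horizontal axis, n cells). Each point is 1 cell and each bar a median; red points are the 86 Ly6c2-high monocytes. Lyz2, Chil3 and Plac8 fill most gated cells, with medians of 25932, 5666 and 2687 CPM, while Saa3, with a median of 3.54 CPM, is high in few.

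Types that neighbour each other in the order of a gene mostly overlapped. Of the 60 such pairs, the ranges between the lower and upper quartile of cells overlapped in 57. The exceptions were Plac8 in the Plcb1-led cluster against T cell-like cells, Lyz2 in the Plcb1-led against the Retnlg-led neutrophil-like cluster, and Lyz2 in the Il23a-led neutrophil-like cluster against T cell-like cells. For Saa3, Dmkn and Cd177 the median cell of most types held none. Where this was so on both sides, the overlap follows from shared zeros and says nothing about spread. Free RNA can place a few counts in any cell, and T cell-like cells served as the level of such a background. With every cell thinned to 25000 counts, 28.4% of 102 T cell-like cells still had a Chil3 count, against 90.7% of gated cells, and 70.6% had a Lyz2 count, against 98.8%. For Plac8 the shares were 35.3 and 91.9%, for Dmkn 3.92 and 51.2%, for Cd177 1.96 and 54.7% and for Saa3 4.90 and 25.6%. Before thinning, 98.8% of the gated cells had a Chil3 count, 98.8% a Lyz2, 96.5% a Plac8, 64.0% a Cd177, 59.3% a Dmkn and 55.8% a Saa3 count. The median depths of these types were 221287 counts in the gate and 89248 counts in the T cell-like cluster. Because T cell-like cells were taken as the background by choice, their own values cannot be set against it. Whether the low Chil3 and Lyz2 values of lymphoid cells come from free RNA was not tested, and the 2 were not separated.

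Within the gate the 6 genes ranged from evenly shared to sparse. Lyz2 was the most even of them, with a coefficient of variation over cells of 0.551, against a median of 0.491 over the 166 genes with at least 1000 CPM in the gate. Chil3 and Plac8, also above 1000 CPM, had coefficients of 1.07 and 1.04, above that median. Over all 2464 genes with at least 50 CPM, of which 2141 lay between 50 and 500 CPM, the median was 1.35. Cd177 and Dmkn had 1.53 and 1.79, and Saa3 had 3.19, above 98.3% of these 2464 genes. The 9 highest cells of each gene held 19.9% of the Lyz2 in the gate, as a sum of CPM over cells, 34.4% of the Chil3, 35.2% of the Plac8, 49.0% of the Cd177, 53.9% of the Dmkn and 91.8% of the Saa3. Over the genes measured, the 9 highest cells held a median of 42.3%.

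Saa3 split the gate with an empty stretch between. In 67 cells it was at most 25.4 CPM, and in 19 cells it was at least 152 CPM. Of these 19, 10 held 152 to 1000 CPM and 9 held more than 1000 CPM, up to 10177 CPM. In all, 18 of the 19 lay in the classical monocyte-like cluster and 1 in an unnamed cluster. Chil3 was low in a minority of gated cells. It was below 100 CPM, at 0 to 42.2 CPM, in 13 gated cells and at least 100 CPM in 73, of which 70 passed 1000 CPM. Of the 13 low cells, 6 lay in the classical monocyte-like cluster, 4 in neutrophil-like clusters, 1 in the dendritic-like cluster and 2 in unnamed clusters. The 6 low cells of the classical monocyte-like cluster still carried Lyz2, Plac8 and Ccr2. Their Lyz2 ran from 16669 to 42873 CPM, their Plac8 from 1660 to 8418 CPM and their Ccr2 from 694 to 3174 CPM, while their Chil3 was 6.49 to 15.6 CPM, below the 16.5 CPM of T cell-like cells.

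Counting members at 100 CPM or more in each cell, 5 gated cells held all 6, 20 held 5, 28 held 4, 20 held 3, 6 held 2, 6 held 1 and 1 held none. All 25 cells with 5 or 6 members lay in the classical monocyte-like cluster, as did 1 of the 13 cells with 2 or fewer. The median count per cell was 250196 in cells with all 6, 266973 in cells with 5 and 81203 in cells with 1. Depth thus moved with the number of members, and its part in that number was not tested. There were 19 patterns. Chil3 with Plac8 and Lyz2 alone was the commonest, in 15 cells. The same 3 with Dmkn were found in 13 cells, with Dmkn and Cd177 in 11, and with Cd177 in 10.

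**Figure D2:**
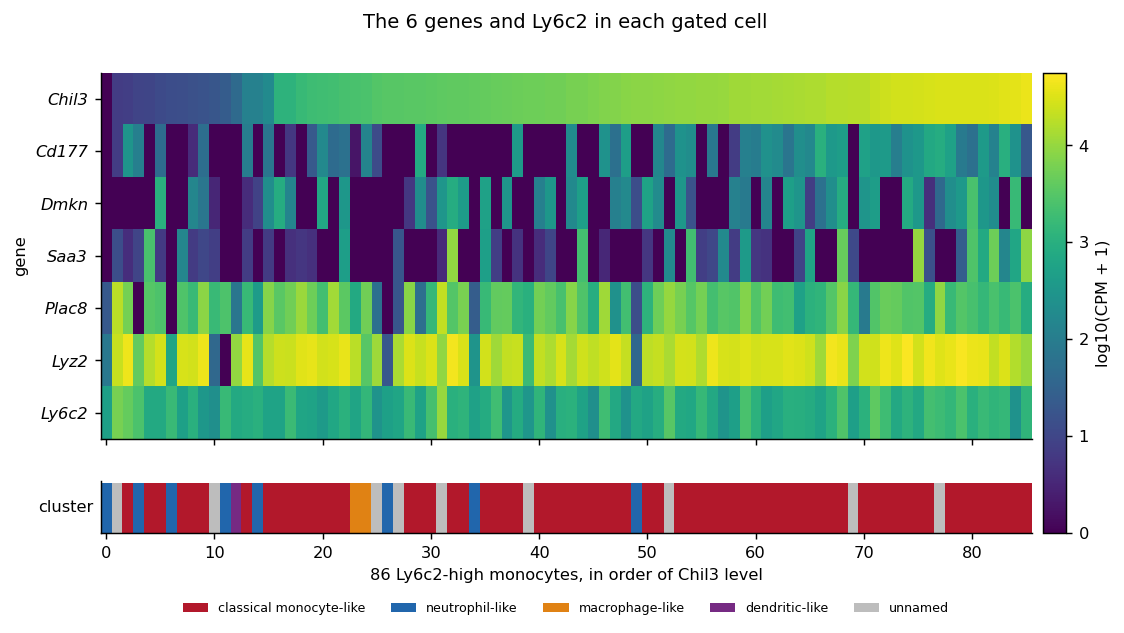
Levels of the 6 genes and of Ly6c2 (rows; colour, log10 of CPM + 1) in each of the 86 Ly6c2-high monocytes, placed from low to high Chil3 (horizontal axis, rank of the cell). The strip below gives the cluster of each cell. Plac8 and Lyz2 are high along most of the row, including many of the 13 cells below 100 CPM of Chil3, and Saa3 is high in 19 scattered cells.

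The gate cut through a range, so the cells on either side of its Ly6c2 limit were compared as a description. The 10 cells just inside held 230 to 319 CPM of Ly6c2 and the 10 just outside, which passed the Csf1r limit, held 129 to 184 CPM. Of these, 7 and 5 lay in the classical monocyte-like cluster. Chil3 had medians of 5172 CPM inside and 2555 CPM outside, Lyz2 17556 and 15150 CPM, and Plac8 2270 and 351 CPM. Dmkn had medians of 36.9 and 0 CPM, whereas Cd177 was higher outside, with medians of 0 and 49.7 CPM and 2 against 4 cells at 100 CPM or more. Saa3 had medians of 3.30 and 17.0 CPM and reached at most 656 CPM in the cells just inside and 19919 CPM in 1 of the cells just outside. The cell at 19919 CPM was the macrophage-like cell of highest Saa3.

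Across the 86 gated cells the 6 genes were only loosely tied to each other. The median Spearman correlation over the 15 pairs was 0.186, and 0.057 over the 66 gated cells of the classical monocyte-like cluster. Correlations over cells are descriptions of 1 library, share the depth of each cell and carry no test. The strongest pair was Chil3 with Cd177, at 0.53 over all 86 cells and 0.53 over the 66. Cells with at least 100 CPM of Cd177 had a median of 14504 CPM of Chil3, and the other cells had 3842 CPM. Of the 34 cells with Cd177 at 100 CPM or more, 32 also passed 100 CPM of Chil3. Cd177 with Lyz2 gave 0.42 over the 86 cells and 0.19 over the 66. Chil3 with Plac8 gave -0.01 over the 86 cells and -0.31 over the 66, the lowest of the 15 pairs in both. Saa3 was not closely tied to any member, with 0.19 for Chil3, 0.18 for Lyz2 and 0.01 for Cd177. Dmkn gave 0.27 with Chil3 and 0.32 with Lyz2 over the 86 cells, and 0.14 and 0.05 over the 66.

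**Figure D3:**
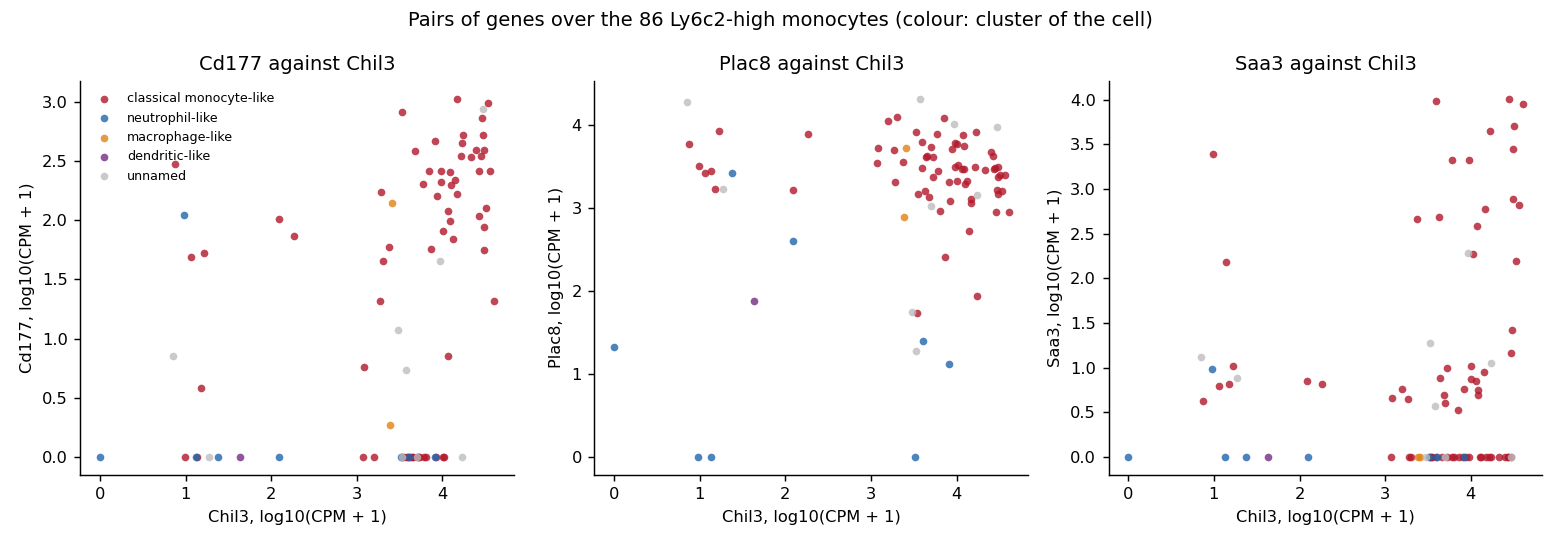
Cd177, Plac8 and Saa3 (vertical axes, log10 of CPM + 1) against Chil3 (horizontal axes, log10 of CPM + 1) in each of the 86 gated cells, with the colour giving the cluster. Cd177 is mostly found on the Chil3-high side (Spearman 0.53), Plac8 shows no upward trend (-0.01) and the 19 cells high in Saa3 stand apart from the rest.

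The genes that followed each member most closely from cell to cell differed between members. They were ranked over all 86 gated cells, of which 66 lay in the classical monocyte-like cluster. The part of the other gated cells in these rankings was not tested. Chil3 was followed by Chil4 (Spearman 0.73), Gm6522 (0.68) and Thbs1 (0.62), which encodes the matrix protein thrombospondin 1. Chil4 is its near copy 33925 bases away in GRCm38, and Gm6522 is annotated there as an unprocessed pseudogene of the same stretch of chromosome 3. Both copies were at only 2.42 and 2.82 CPM in the gate, and of their values above 0, 3 of 60 and 4 of 55 were whole numbers. The counts of Chil3 were also whole in only 29.4% of the gated cells that had any, so that the division of counts between Chil3 and its copies is uncertain. The same held for Lyz2, whole in 28.2%, whose neighbour Lyz1 (5475 bases away) was at 19.4 CPM, and for Cd177, whole in 23.6%. Saa3, Plac8 and Dmkn were whole in 95.8, 94.0 and 100% of their values.

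Cd177 was followed by Lypd10 (0.66), at 0.457 CPM and whole in 4.76% of its values, by Fn1 (0.51), which encodes fibronectin, and by Tarm1 (0.49). Plac8 was followed by Ifitm3 (0.58), an antiviral membrane protein gene, Gm36161 (0.57) and Ms4a6c (0.55). Lyz2 was followed by the ribosomal protein genes Rps15a (0.60) and Rplp0 (0.60) and by F13a1 (0.59), which encodes the coagulation factor XIII A chain. Dmkn was followed by Rplp0 (0.54), Gm13456 (0.49) and Gm10263 (0.48). Saa3 had no close follower, with 0.44 for Nvl, 0.44 for Gm14648 and 0.42 for Cd302. Of 9036 genes ranked, 157 reached 0.4 with Lyz2, 134 with Plac8, 27 with Cd177, 21 with Dmkn, 14 with Chil3 and 5 with Saa3.

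Over the 11 types, profiles were compared by the Pearson correlation of log2(CPM + 20), a description over types that were partly defined by such genes. Chil3 was most like Thbs1 (0.95), F10 (0.91), which encodes coagulation factor X, and Sirpb1c (0.91). Cd177 was most like Mmp8 (0.95), the neutrophil collagenase, Tarm1 (0.93) and Lrg1 (0.87). Mmp8 and Lrg1 were highest in the Retnlg-led neutrophil-like cluster, at 518 and 1630 CPM, where Cd177 was 78.7 CPM. Lyz2 was most like Lgals3 (0.96), which encodes galectin-3, Tgfbi (0.95) and Milr1 (0.95). Saa3 was most like Ecm1 (0.93), F13a1 (0.86) and Cstb (0.85), all highest in macrophage-like cells. Plac8 was most like BC028528 (0.87), Rnase6 (0.85) and Serpinb10 (0.82). Dmkn was most like Gde1 (0.82), Ms4a4a (0.81) and 2310022A10Rik (0.79).

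The gated cells were next divided by Chil3 itself, to see which other genes went with it. The 21 cells of highest Chil3 held 14873 to 40543 CPM and the 21 of lowest Chil3 held 0 to 1923 CPM. These groups are ranges and not types: 11 gated cells lay within 20% of the upper limit and 4 within 20% of the lower one. Median counts per cell were 221882 and 213219. Their make-up differed, since 19 of the high and 13 of the low cells were of the classical monocyte-like cluster and none of the high but 5 of the low cells were of neutrophil-like clusters. Summed neutrophil markers were 1845 CPM in the high cells (565 to 6751 CPM per cell) and 13301 CPM in the low cells (140 to 247662 CPM per cell), with none of the 10 markers at 0 on either side. Values are therefore also given within the classical monocyte-like cluster, for the 16 highest and 16 lowest of its 66 gated cells. Of 2905 genes tested between the 21 and the 21 cells, 8.88% were higher and 10.8% lower in the Chil3-high cells. With 1 library, these calls describe these cells, and the intervals cover counting error only.

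Of the other 5 members, 3 were called higher in the Chil3-high cells and none lower. Cd177 was 380 CPM in the high cells and 50.3 CPM in the low cells, 7.56-fold higher (6.58 to 8.72). It ran from 0 through a median of 347 to 1057 CPM in the high cells and from 0 through 2.79 to 294 CPM in the low cells. In all, 17 of 21 high cells and 4 of 21 low cells passed 100 CPM, so that the ranges overlapped but most high cells lay above the median low cell. Within the classical monocyte-like cluster Cd177 was 5.86-fold higher (5.10 to 6.78), and 13 of 16 against 3 of 16 cells passed 100 CPM. Dmkn was 409 CPM against 131 CPM, 3.11-fold higher (2.84 to 3.42), with 12 against 6 cells at 100 CPM or more, and it was 2.94-fold higher within the cluster. A single cell held 35.2% of the Dmkn of the 21 high cells, and the means of per-cell CPM were 389 and 152 CPM.

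Saa3 was 1814 CPM against 140 CPM, 12.9-fold higher (11.9 to 14.0), with 9 against 2 cells at 100 CPM or more. A single cell held 89.3% of the Saa3 on the low side, and without the highest cell of each side the ratio was 90.2. Medians were 13.6 and 4.69 CPM, so that the difference rested on few cells. Lyz2 was 32161 CPM against 24349 CPM (ratio 1.32) and Plac8 was 2839 CPM against 4268 CPM (ratio 0.665), and neither passed the 2-fold limit. Within the cluster Plac8 had medians of 2483 and 4264 CPM and a ratio of 0.521 (0.509 to 0.533), just short of it.

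Among 20 genes of the classical monocyte programme, 4 were called higher and 2 lower in the Chil3-high cells, and the median log2 ratio was 0.51 against -0.02 over all genes tested. Thbs1 was 3105 CPM against 521 CPM, 5.96-fold higher (5.71 to 6.23), Mgst1, a microsomal glutathione transferase, 2.60-fold, Fn1 2.47-fold and Cd14, the endotoxin co-receptor, 2.41-fold. Ly6c2 (ratio 1.27), Ccr2 (1.18) and Vcan (1.47), which define the type, did not pass the limit. Ms4a4c (ratio 0.466, and 0.644 without the highest cell of each side) and Ly6a (ratio 0.015) were lower, and 1 cell held 96.1% of the Ly6a on the low side. Within the cluster 3 of 19 were higher, Thbs1 (4.53), Cd14 (3.12) and Fn1 (2.33), Mgst1 stood at 1.89, and none was lower. Over all 2892 genes tested there, 9.47% were higher and 11.3% lower.

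Among the neutrophil-like and granule genes, 2 of 6 tested were higher and 2 lower. Mmp8 was 518 CPM against 215 CPM (2.41-fold) and Lcn2, the siderophore-binding lipocalin, 539 against 213 CPM (2.53-fold). As means of per-cell CPM they were 527 against 291 CPM and 503 against 329 CPM, both short of 2-fold. S100a8 and S100a9, the subunits of calprotectin, were lower (ratios 0.207 and 0.036). Their direction turned within the classical monocyte-like cluster, where 9.47% of 2892 genes were higher and 11.3% lower. There S100a8 was 1093 CPM against 136 CPM (8.02-fold higher), and S100a9 192 against 74.6 CPM (2.57-fold higher, but 1.17-fold without the highest cell of each side). Mmp8 (4.43-fold), Lcn2 (9.25-fold) and Wfdc21 (4.62-fold) were also higher, so that 5 of 6 were higher within the cluster. Single cells held 63.5% of the Lcn2 and 78.3% of the Wfdc21 on its low side.

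The 4 tested dendritic-like genes, those for class II antigen presentation, were all lower in Chil3-high cells. H2-Aa was 11.7-fold lower, H2-Ab1 12.9-fold, H2-Eb1 38.8-fold and Cd74, the invariant chain, 10.9-fold. A single cell held 74.8 to 92.9% of each on the low side. The 4 remained lower within the cluster, by 14.6-, 17.5-, 8.16- and 13.5-fold, where the highest cell held 37.3 to 49.4% of the low side. There 4 to 9 of the 16 low cells but 0 to 6 of the 16 high cells passed 100 CPM, and the median high and low cells held 15.1 and 16.5 CPM of H2-Aa, 16.9 and 24.3 CPM of H2-Ab1 and 12.9 and 17.7 CPM of H2-Eb1. Summed markers of conventional dendritic cells in the groups of 21 were 44.2 CPM in the high cells (0 to 495 per cell) and 156 CPM in the low cells (0 to 1613 per cell), with none of 7 markers at 0. The part of such cells in the result was not tested.

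Of 9 interferon-stimulated genes tested, 6 were lower and none higher in the Chil3-high cells, where 8.88% of all 2905 genes tested were higher and 10.8% lower. Of those called, Ifit2 was higher as a mean of per-cell CPM (49.3 against 36.4 CPM), and the rest stayed lower. Ifit2 had counts in only 2 high and 3 low cells. Isg15 was 179 CPM against 410 CPM and Irf7 was 146 CPM against 480 CPM, but 1 cell held 71.6% and 65.4% of these on the low side, and without the highest cell of each side the ratios were 1.04 and 0.643. Within the cluster, where 9.47% of 2892 genes were higher and 11.3% lower, only 3 were tested, of which Irf7 was lower (ratio 0.444). Of 12 inflammatory and immediate early genes 6 were lower, Cxcl2, Ccl3, Nfkbiz, Fos, Jun and Egr1, against 2 of 11 (Ccl3 and Jun) lower and 1 (Ptgs2) higher within the cluster. Of 5 macrophage genes compared, Apoe alone was called, at 8634 CPM against 3746 CPM (2.30-fold higher). Within the cluster 2 of 6 were higher, Apoe (2.06-fold) and Spp1 (5.46-fold), and 3 were lower, C1qb (14.1 against 78.3 CPM), C1qc (1.43 against 52.8 CPM) and Adgre1 (114 against 252 CPM). A single cell held 84.8% of the Spp1 of the 21 Chil3-high cells, so that the call of Spp1 rested mostly on that cell. Of 6 patrolling monocyte genes, Treml4 alone was called, lower at a ratio of 0.399, with 75.1% of the low side in 1 cell. Single calls in lists this short lie near the shares over all genes and are no result about the lists. Within the cluster Treml4 was lower (ratio 0.404) and Pou2f2 higher (ratio 2.12, 1.79 to 2.53). A single cell held 37.8% of the Pou2f2 of the 21 Chil3-high cells.

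**Figure D4:**
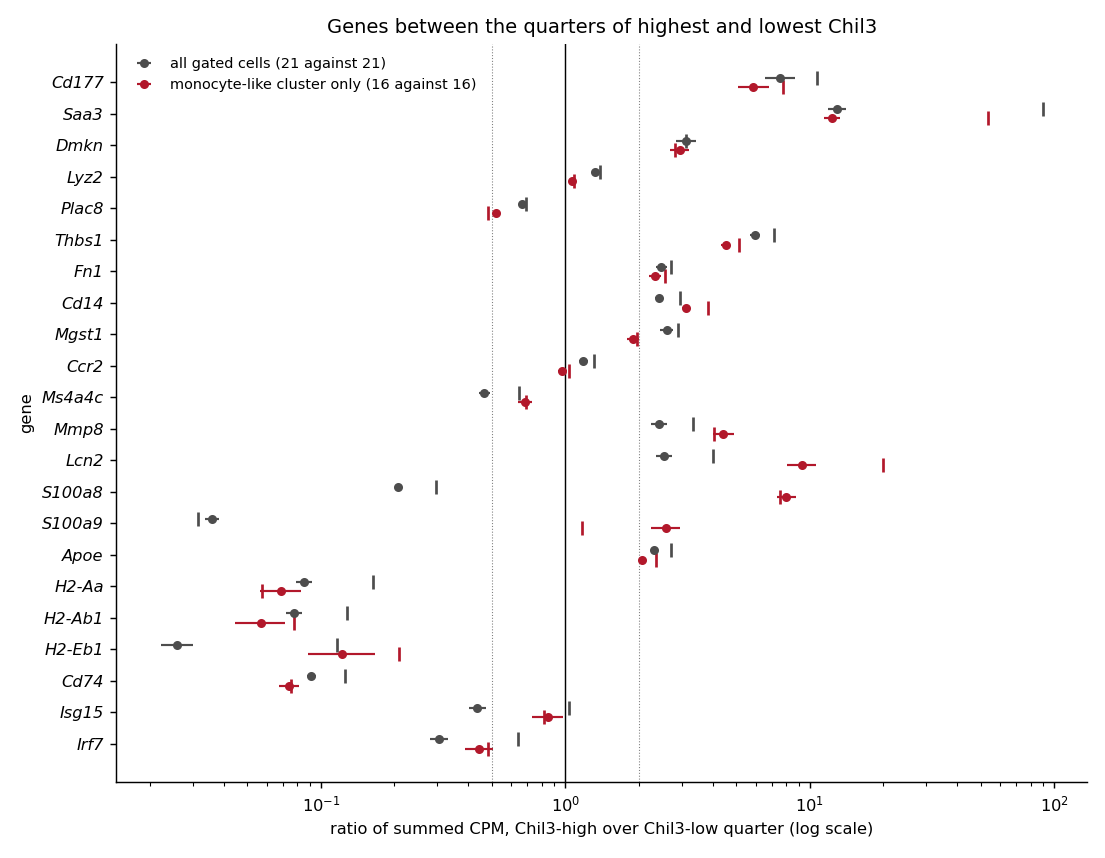
Ratio of summed CPM in the cells of highest Chil3 to the cells of lowest Chil3 (horizontal log axis) for members and list genes (vertical axis). Grey points are all gated cells (21 against 21), red points the classical monocyte-like cluster only (16 against 16); bars are exact intervals for counting error, upright ticks the ratio without the highest cell of each side, and dotted lines mark 2-fold. Cd177 (7.56 and 5.86) and Thbs1 (5.96 and 4.53) lie right of the line in both, the H2 genes left of it in both, and S100a8 lies on opposite sides (0.207 and 8.02).

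Several of the genes of most extreme ratio marked single cells. The 10 highest ratios were those of Krtdap, Fabp7, Gm36723, Gzmb, Cep164, Arhgap32, Nnmt, Fcsk, Ciz1 and 0610030E20Rik. One cell held 99.5% of the Krtdap, 98.8% of the Gzmb, 99.2% of the Arhgap32, all of the Fcsk and 89.8% of the Ciz1 on the high side. The highest cell held less of the others, 72.2% of the Nnmt, 53.2% of the Fabp7, 35.6% of the Gm36723, 33.6% of the 0610030E20Rik and 23.6% of the Cep164. The 10 lowest ratios were those of AA467197, Retnlg, Ccl4, Klrk1, Hspa1a, Chil1, Spats2, Acod1, Cd69 and Ly6a. Retnlg, a granulocyte gene, was 12.3 CPM in the high cells and 2296 CPM in the low cells, of which 1 cell held 84.4%. Within the classical monocyte-like cluster Retnlg was 11.2 CPM against 9.36 CPM. Chil1, a paralog of Chil3 on another chromosome, had 1 count over the high cells and 223 counts over the low cells, and no count on either side within the cluster.

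Saa3-high cells were compared with the other gated cells in the same way, a comparison added after the gap in Saa3 had been seen. Of the 19 cells, 2 were named doublet by the authors, as were 2 of the 67. Of 2792 genes tested between the 19 and the 67 cells, 3.65% were higher and 5.16% lower. Chil3 was 17444 CPM against 8404 CPM, 2.08-fold higher (2.06 to 2.09), with medians of 11737 and 4810 CPM, and 1.93-fold higher within the classical monocyte-like cluster (18 against 48 cells), which is short of the limit. Dmkn was 372 CPM against 151 CPM, 2.47-fold higher, 1.82-fold without the highest cell of each side and 2.25-fold within the cluster. Cd177 (ratio 1.14), Lyz2 (1.11) and Plac8 (0.886) did not pass the limit. No gene of the classical monocyte programme was called higher and 1 of 20 (Ly6a) was lower, and within the cluster 0 of 19 were called, where 4.89% of 2780 genes were higher and 4.64% lower.

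Outside the members, Mmp8 was 441 CPM against 182 CPM in Saa3-high cells (2.42-fold) and 2.63-fold within the cluster. Hmox1, heme oxygenase 1, was 6.66-fold higher and Spp1, osteopontin, 3.71-fold higher, but 1 cell held 58.5% of the Hmox1 and 59.3% of the Spp1 on the high side. The complement genes C1qa, C1qb and C1qc were lower, at 0.917 against 119 CPM, 16.5 against 239.9 CPM and 1.10 against 96.7 CPM, with 48.6 to 62.9% of the lower-Saa3 side in 1 cell. Within the cluster C1qb was 17.7 against 63.0 CPM (ratio 0.280), and C1qa and C1qc were below the limits for a comparison. S100a8 and S100a9 were lower over all gated cells (ratios 0.295 and 0.051) and were not called within the cluster (1.32 and 0.689). H2-Ab1, H2-Eb1 and Cd74 were lower over all gated cells (ratios 0.372, 0.231 and 0.487), and none of the 4 class II genes was called within the cluster. None of the 19 Saa3-high but 8 of the 67 other cells lay in neutrophil-like clusters, and the summed neutrophil markers were 1151 CPM (154 to 4671 per cell) against 5292 CPM (140 to 247662 per cell).

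Cell names carried the authors' call of a hashtag, and the labels do not say which sorted fraction received which tag, so values by tag describe only the cells so named. Of the 86 gated cells, 37 were named A951, 13 A952, 6 A953, 26 A965 and 4 doublet. The named tag had the highest hashtag count in 37 of 37, 11 of 13, 1 of 6 and 3 of 26 cells. Chil3 was 12434 CPM in the cells named A951 (median cell 8424), 8141 CPM in A952 (3779), 12374 CPM in A953 (7734) and 9758 CPM in A965 (4601). Saa3 passed 100 CPM in 11 of 37 cells named A951, 1 of 13 named A952, 1 of 6 named A953 and 4 of 26 named A965. Cd177 was 155, 146, 199 and 182 CPM in the same order, and its lowest cell was at 0 in each. Lyz2 was 27151, 16343, 25448 and 29421 CPM, Plac8 4328, 4121, 1710 and 5123 CPM, and Dmkn 255, 96.4, 382 and 158 CPM. A single cell held 62.4% of the Plac8 in A952 and a single cell 51.6% of the Dmkn in A953. Without the highest cell of each tag, Plac8 was 4059, 1775.5, 1397 and 4554 CPM and Dmkn 181, 66.1, 211 and 131 CPM. The 4 cells named doublet held 7936 CPM of Chil3 and 27402 CPM of Lyz2, and 2 of them passed 100 CPM of Saa3.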

How the data were processed

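Per the labels' protocols, the authors made 1 pooled transcriptome library and 1 hashtag library by TAS-Seq from cells captured with BD Rhapsody. The deposited transcriptome table holds expected counts (estimated counts) per gene and cell, not normalized, of which 69.8% above 0 are whole, and the deposited hashtag table holds whole counts per tag. The build GRCm39 and the tools STARsolo 2.7.10b, STAR, cutadapt 4.1 and R 4.3.1 are named in the submitters' processing notes without their roles. The sources do not say whether molecules or reads were counted, and with reads the intervals are too narrow.

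Cells with at least 500 counts, 200 genes and at most 25% mitochondrial counts held 100574839 estimated counts, 20038981 of them in the gate. Clustering used scanpy 1.11.5 (2000 variable genes without the members and their paralogs, 30 components, 15 neighbours, Leiden resolution 1, seed 0). A cluster was named when 3 or more markers of a type reached 50 CPM and 2-fold, with ties settled by the leading genes, and types under 20 cells were left out of the order. No doublet caller was run, and cells named doublet were kept. Counts were summed over cells and scaled to CPM, with exact 95% intervals that cover counting error only. Estimated counts were rounded only for thinning and where an interval needs whole numbers. With 1 library no test or p-value is given. The calculation of ratios and intervals was checked on simulated counts with known ratios. Named genes were the members, their paralogs and neighbours, up to 4 genes of each list by level in the gate, the 3 genes most like each member by either measure and the 10 highest and lowest ratios between the Chil3 groups, and further list genes are named beside their list's count. The members and lists were chosen with earlier results of these data known. Alternatives changed the cell filter, gate, clustering, weighting of cells, depth and correlation.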

Additional observations from a re-analysis of the deposited data

How the results depend on the processing

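No paired analysis was possible because each kind of library was made once. The number of members highest in the gate was 3 to 5 of 6 over the 11 alternatives, against 4. Lyz2 was below the other classical monocyte-like cells as a mean of per-cell CPM (ratio 0.954), and Cd177 was below them with a Csf1r limit of 100 CPM (0.910). Saa3 was above every other type with a Ly6c2 limit of 100 CPM (1.38), and Dmkn was above every other type at Leiden resolution 0.5 (1.91). At that resolution no cluster was named classical monocyte, and the macrophage-like cluster of 183 cells met 7 markers of each of these types. The other classical monocyte-like cells, which had led Dmkn, were thus no separate type there. The median correlation over pairs of members, 0.186, was 0.057 in the monocyte-like cluster only (the cause was not tested), and between 0.206 and 0.238 under the 3 other alternatives. With larger groups of highest and lowest Chil3 (each 1 in 3 of the gated cells), 166 genes were higher, against 258 (the cause was not tested), and 283 were lower, against 313. Chil3, Saa3, Plac8, Dmkn, Cd177 and Lyz2 have no replicate library behind any value, so that the spread between animals is unknown. Genes below 50 CPM in both groups compared were not tested.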

Other observations

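One gated cell of the classical monocyte-like cluster carried epidermal genes. Krtdap, a keratinocyte differentiation gene that lies 6832 bases from Dmkn on chromosome 7 of GRCm38, had 317 counts there (1047 CPM), of 320.5 counts over all gated cells. The same cell had the highest Dmkn of the gate, 2395 CPM from 725 counts, with 31.4 CPM of Sbsn, the gene 7621 bases on the other side of Dmkn. It also held 30825 CPM of Chil3, 2765 CPM of Saa3, 2355 CPM of Plac8 and 40484 CPM of Lyz2. This cell was singled out after its values had been seen.

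Over all kept cells, 40 held at least 100 CPM of Saa3, of which 19 were gated, 8 were other classical monocyte-like cells, 5 were of the Il23a-led neutrophil-like cluster, 4 were macrophage-like and 4 were of the Plcb1-led cluster. Of the 56 cells with at least 100 CPM of Dmkn, 38 were gated. Of the 74 with at least 100 CPM of Cd177, 34 were gated, 10 were other classical monocyte-like cells, 18 were of the Retnlg-led and 9 of the Il23a-led neutrophil-like cluster.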
